A study of Mus musculus with 11 samples.

Results

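Open chromatin regions that lay at gene boundaries and were listed on day 15 of tumour growth, but neither in healthy lung nor on day 30, were studied in mouse alveolar macrophages. The peaks of 3 deposited lists were merged into 16069 regions, with peaks joined when they shared at least 1 bp. A region was kept when it held day 15 peaks alone and lay within 1000 bp of either end of a RefSeq gene. The rule kept 567 regions, each made of 1 peak, which were 9.02% of the 6285 boundary regions with a day 15 peak. The other 5718 overlapped a peak of another list and are called shared here. The members were thus chosen by the peak calls of the 3 lists and by position, so the counts that follow from the rule are descriptions.

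Accessibility had been profiled with ATAC-seq, whose transposase cuts open DNA and leaves sequencing adapters behind. Alveolar macrophages, the resident ones of the lung, had been sorted from C57BL/6 mice. The KP day 15 group (4 samples) and the KP day 30 group (3 samples) came from mice that had been given KP lung adenocarcinoma cells through the tail vein and whose lungs were taken 15 or 30 days later, and the naive group (4 samples) was taken from wild type mice. The tumours therefore grew from an injected line seeded through the blood and did not arise in the lung epithelium. There was 1 peak list for each group, so no value has a replicate error, no test between conditions was possible, and the 95% Wilson intervals reflect only the counting of regions.

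The ends of a gene are of unequal kind. The 5′ end carries the promoter, where a nucleosome-poor stretch holds the general transcription machinery, and in mammals most promoters of broadly used genes are rich in CpG dinucleotides and stay open in many cell types. The 3′ end is where the transcript is cleaved, and it is less often open. Alveolar macrophages are the resident phagocytes of the air spaces, known for clearing surfactant lipid, and they present antigen on MHC class I and, at a lower level than dendritic cells, on MHC class II.

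The promoter sequences of 6 genes are printed first because their regions were the strongest members of the named genes that covered part of a promoter window. The 4 that follow them belong to an antigen presentation gene, a chemokine gene, a macrophage receptor gene and a gene of blood cells, all described further on, and were added after their values had been seen. Each window runs from 250 bases before to 50 bases after a start site, 5′ to 3′ in the direction of the gene, from RefSeq on the GRCm38.p6 assembly, which is mm10. Capitals mark matches to the searched letters in either orientation, with positions counted from the start site as 0.
Kansl3, chr1:36369132-36369431, minus strand: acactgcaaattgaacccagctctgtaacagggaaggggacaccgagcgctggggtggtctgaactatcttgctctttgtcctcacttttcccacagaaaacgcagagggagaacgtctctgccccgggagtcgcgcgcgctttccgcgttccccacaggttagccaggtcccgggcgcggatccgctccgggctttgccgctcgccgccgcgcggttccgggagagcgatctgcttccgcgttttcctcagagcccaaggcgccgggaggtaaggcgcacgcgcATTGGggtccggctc
Pfkl, chr10:78009758-78010057, minus strand: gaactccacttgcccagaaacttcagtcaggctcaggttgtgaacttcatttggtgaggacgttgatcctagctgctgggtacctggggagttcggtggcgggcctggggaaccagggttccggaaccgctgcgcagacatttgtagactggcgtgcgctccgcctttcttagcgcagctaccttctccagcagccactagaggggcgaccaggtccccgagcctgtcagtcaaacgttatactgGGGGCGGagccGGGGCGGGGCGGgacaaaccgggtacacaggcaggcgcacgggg
Nol11, chr11:107189332-107189631, minus strand: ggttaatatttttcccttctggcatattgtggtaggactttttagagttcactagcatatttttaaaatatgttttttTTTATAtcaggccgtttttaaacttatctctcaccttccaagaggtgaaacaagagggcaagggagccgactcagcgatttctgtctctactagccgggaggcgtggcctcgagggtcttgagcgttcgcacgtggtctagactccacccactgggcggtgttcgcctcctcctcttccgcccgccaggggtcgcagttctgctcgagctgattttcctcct
Sun2, chr15:79742487-79742786, minus strand: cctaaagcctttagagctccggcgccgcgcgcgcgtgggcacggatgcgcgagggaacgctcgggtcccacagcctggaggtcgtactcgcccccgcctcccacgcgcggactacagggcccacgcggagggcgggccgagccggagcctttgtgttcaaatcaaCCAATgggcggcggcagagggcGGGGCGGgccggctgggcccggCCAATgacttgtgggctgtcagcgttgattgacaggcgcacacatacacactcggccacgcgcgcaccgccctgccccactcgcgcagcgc
Arfrp1, chr2:181365355-181365654, minus strand: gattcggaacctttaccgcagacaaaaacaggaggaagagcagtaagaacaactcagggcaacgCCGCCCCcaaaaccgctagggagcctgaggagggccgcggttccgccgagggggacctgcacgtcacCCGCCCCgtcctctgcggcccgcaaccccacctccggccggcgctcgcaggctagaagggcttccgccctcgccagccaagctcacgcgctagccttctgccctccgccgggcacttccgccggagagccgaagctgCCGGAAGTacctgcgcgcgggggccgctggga
H2-T22, chr17:36042693-36042992, minus strand: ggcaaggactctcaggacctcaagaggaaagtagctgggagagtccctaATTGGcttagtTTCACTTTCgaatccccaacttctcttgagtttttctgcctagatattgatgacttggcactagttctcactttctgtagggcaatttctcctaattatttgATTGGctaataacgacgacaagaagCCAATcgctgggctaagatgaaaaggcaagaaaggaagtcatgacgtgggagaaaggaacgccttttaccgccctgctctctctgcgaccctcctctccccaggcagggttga
H2-Aa, chr17:34287774-34288073, minus strand: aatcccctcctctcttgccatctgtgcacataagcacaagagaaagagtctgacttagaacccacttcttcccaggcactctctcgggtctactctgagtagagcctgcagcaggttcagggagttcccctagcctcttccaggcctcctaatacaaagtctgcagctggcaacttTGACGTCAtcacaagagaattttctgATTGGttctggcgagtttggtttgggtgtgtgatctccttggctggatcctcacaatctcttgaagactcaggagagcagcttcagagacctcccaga
Cxcl1, chr5:90890995-90891294, plus strand: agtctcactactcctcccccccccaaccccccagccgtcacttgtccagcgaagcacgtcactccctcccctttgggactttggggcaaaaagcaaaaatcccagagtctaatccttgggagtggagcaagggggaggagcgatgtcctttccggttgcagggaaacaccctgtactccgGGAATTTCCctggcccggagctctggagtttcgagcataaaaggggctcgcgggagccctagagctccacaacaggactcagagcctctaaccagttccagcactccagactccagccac
Mrc1, chr2:14229164-14229463, plus strand: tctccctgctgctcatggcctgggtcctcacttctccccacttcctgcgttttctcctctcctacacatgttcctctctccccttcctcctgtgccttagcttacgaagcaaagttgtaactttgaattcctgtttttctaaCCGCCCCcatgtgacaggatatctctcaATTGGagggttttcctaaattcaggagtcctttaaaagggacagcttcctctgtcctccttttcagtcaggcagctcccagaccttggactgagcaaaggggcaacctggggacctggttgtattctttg
Hcls1, chr16:36934733-36935032, plus strand: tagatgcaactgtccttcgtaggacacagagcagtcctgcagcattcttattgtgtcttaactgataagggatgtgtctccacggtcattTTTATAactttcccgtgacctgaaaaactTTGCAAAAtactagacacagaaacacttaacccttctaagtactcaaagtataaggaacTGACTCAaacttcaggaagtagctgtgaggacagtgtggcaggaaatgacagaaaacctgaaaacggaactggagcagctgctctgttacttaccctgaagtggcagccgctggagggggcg

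The searched letters found in these windows were of 9 kinds. The CCAAT box (CCAAT, the binding letters of NF-Y) lay at +35 to +39 in Kansl3, in 2 copies in Sun2, in 3 copies in H2-T22, at -48 to -44 in H2-Aa and at -80 to -76 in Mrc1, and 37.4% of all promoter windows hold it. The GC box (GGGGCGG, bound by the SP and KLF factors) had 3 copies between -5 and +17 in Pfkl, where the last 2 overlap, 2 copies in Arfrp1, 1 in Sun2 and 1 in Mrc1, against a share of 23.2% of all windows. Arfrp1 also held the ETS letters (CCGGAAGT) at +18 to +25, found in 3.89% of all windows. H2-T22 held letters of the interferon response element (GAAANNGAA) at -190 to -182, found in 8.55% of all windows. H2-Aa held the cyclic AMP response element (TGACGTCA) at -74 to -67, found in 1.79% of all windows. Class II promoters are known for an X box that binds the RFX complex, an adjoining X2 box that binds the CREB family and a Y box that binds NF-Y. Cxcl1 held NF-kB letters (GGANTTTCC) at -70 to -62, found in 1.26% of all windows. Hcls1 held AP-1 letters (TGANTCA) at -72 to -66 and C/EBP letters (TTGCNNAA) at -131 to -124, found in 7.81% and 10.8% of all windows. TATA letters (TATAAA, in 13.6% of all windows) lay at -160 to -155 in Hcls1 and at -172 to -167 in Nol11, both in the reverse orientation. These TATA letters lay outside the member peaks, while the other letters named lay inside theirs. Both strands were searched, and a match describes the letters and does not show a bound site.

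One member lay beside a microRNA of blood cells. Mir142 encodes the miR-142a pair, known as abundant in haematopoietic cells, and its mature sequences are printed with the seed, bases 2 to 8, in capitals (RefSeq, GRCm38.p6, plus strand of chromosome 11).
mmu-miR-142a-5p: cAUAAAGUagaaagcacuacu
mmu-miR-142a-3p: uGUAGUGUuuccuacuuuaugga
The region at chr11:87756516-87756725 had a summit pileup of 18 tags and ended 139 bp upstream of the gene. The nearest naive peak was 689 bp away.

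Member peaks were low and narrow. The summit pileup, which is the number of overlapping tags at the highest point of a peak, was recovered from the authors' fold and p-value. Its median was 15 tags in the members (95% interval 15 to 16, range 9 to 30), against 22 in the shared regions (22 to 22). Relative to the local background, the authors' fold was 4.76 at the median member and 6.22 at the median shared region, and the median peak width was 244 bp against 392 bp. With each list cut to its 3352 best peaks (equal lengths), 360 regions met the rule and their median pileup was 25 tags. Most of these 360 were shared in the full lists, where 49 members had 21 to 25 tags and 9 had 26 to 30. The local background itself had a median of 2.34 tags in the members and 2.68 in the shared regions.

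The share of day 15 boundary regions found in no other list was lower at higher pileups. It was 37.6% (95% interval 31.1 to 44.5) at 9 to 12 tags, 26.6% at 13 to 14, 19.5% at 15 to 16, 11.99% at 17 to 18, 8.22% at 19 to 20, 3.57% at 21 to 25 and 1.08% at 26 to 30. Of the 1134 boundary regions with 31 tags or more, 0 were members, with an upper bound of 0.338%. Depth, as recovered from each list, came to 39.2 tags per 10 kb for naive, 93.5 for day 15 and 82.2 for day 30. The lists held 14731, 10861 and 3352 peaks in the same order. Divided by the ratio of the day 15 to the naive depth, 2.38, 219 of the 567 member pileups (38.6%, 34.7 to 42.7) came to no more than 6 tags, the lowest pileup of any naive peak. The values given below at the naive depth use this ratio. It is a ratio of background tags, and peak summits need not follow it. Over all peaks, the median pileup was 16 tags in the naive list and 19 in the day 15 list. Whether a missing naive peak at those members comes from a lower depth of the naive list was not tested.

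**Figure D1:**
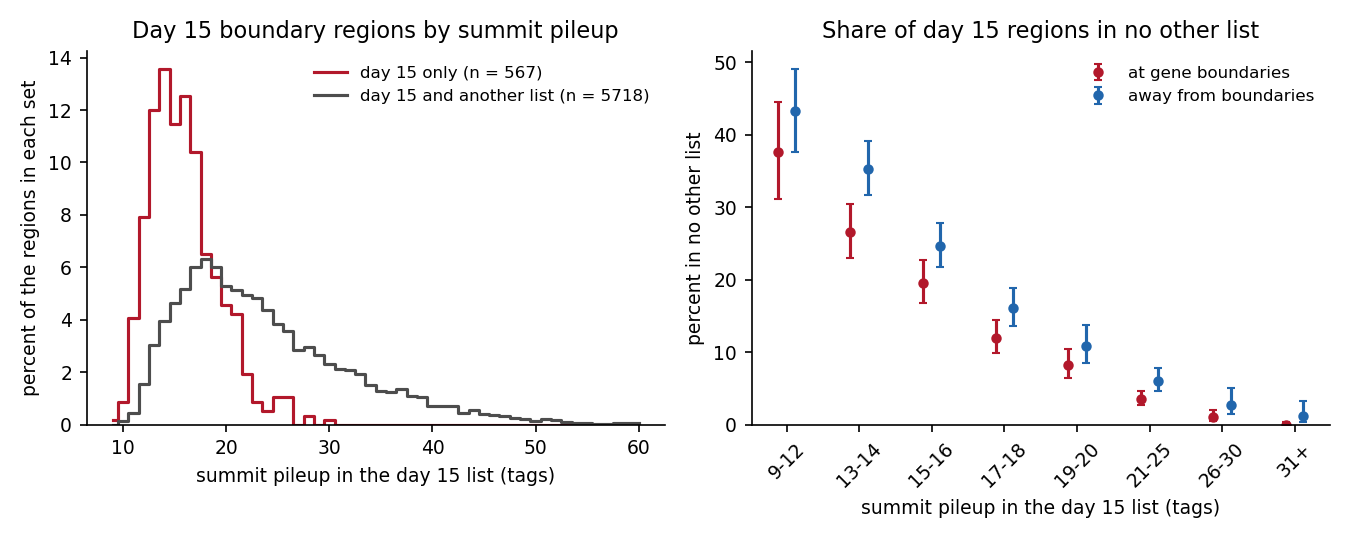
Summit pileup of day 15 boundary regions (left, percent of each set by tags, from 9 to 60 tags, with taller shared peaks beyond the axis) and the percent of day 15 regions that no other list holds (right, points with 95% Wilson intervals, at gene boundaries and away from them). Members reach 30 tags and no more, and the share in no other list is lower at each step of pileup in both places, with the lower point at boundaries in each bin.

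Boundaries were less often the site of a day 15-only region than of a shared one. Of the 1345 regions with day 15 peaks alone, 42.2% (39.5 to 44.8) were at boundaries, against 61.02% (60.03 to 62.00) of the 9371 regions of day 15 and another list. The naive-only regions had 38.6% (37.3 to 39.95) of 5174 at boundaries. Among day 15 regions of 14 to 18 tags, the interquartile range of the members, 17.2% (15.5 to 18.97) of the boundary regions were in no other list, against 23.4% (21.5 to 25.4) of the regions away from boundaries. Both variables belong to the rule of the part, so these shares are descriptions. The 42.2% moved to between 36.7% and 57.9% under other settings, under which the share of the shared regions was not recomputed.

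Most members sat at 5′ ends. Of the 567, 392 (69.1%) had only 5′ ends within 1000 bp, 32 (5.64%, 4.03 to 7.86) only 3′ ends and 42 (7.41%) both, while 101 lay near genes whose strand was not used here. The shared regions had 75.5% at 5′ ends only and 2.75% (2.35 to 3.20) at 3′ ends only. At 14 to 18 tags the share at 3′ ends only was 6.47% (4.23 to 9.79) in the members and 4.29% (3.37 to 5.44) in the shared regions, with overlapping intervals. A gene end lay inside 53.6% (49.5 to 57.7) of the member peaks and 76.5% (75.4 to 77.6) of the shared peaks, and at 14 to 18 tags inside 55.3% (49.8 to 60.8) against 69.6% (67.3 to 71.9).

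Members covered part of a promoter window less often than shared regions, also at like height. The shares were 54.5% (50.4 to 58.6) of the members and 73.1% (72.0 to 74.3) of the shared regions. At 14 to 18 tags they were 57.6% (52.0 to 63.0) of 309 members and 68.4% (66.0 to 70.7) of 1492 shared regions. The shared peaks of this height were wider, with a median of 293 bp against 239 bp, which bears on the overlap. The naive-only boundary regions, at 52.9% (50.7 to 55.0) of 1998, were close to the members. The summit was within 100 bp of a start site in 40.4% (36.4 to 44.5) of the members, 49.4% (48.1 to 50.6) of the shared regions and 40.4% (38.3 to 42.6) of the naive-only regions. It was more than 250 bp and up to 1000 bp downstream of a start in 12.2% (9.73 to 15.1) of the members, 5.26% (4.71 to 5.87) of the shared regions and 10.6% (9.33 to 12.04) of the naive-only regions. At 14 to 18 tags the values were 9.71% (6.89 to 13.5) of the members and 5.90% (4.81 to 7.21) of the shared regions, with overlapping intervals. At that height the summit was within 100 bp of a start in 40.8% (35.4 to 46.3) of the members and 51.5% (48.9 to 54.0) of the shared regions.

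The members were divided by whether a naive peak lay beside them. A naive peak lay within 1000 bp of 145 members (25.6%, 22.2 to 29.3), against 101 of the 778 day 15-only regions away from boundaries (12.98%, 10.8 to 15.5). The share depends on how peaks are joined: it was 13.6% with peaks up to 200 bp apart joined, 46.9% where sharing needed 50% of the day 15 peak covered and 1.11% with the lists cut to equal lengths. These 145 lay at a median of 198 bp from the naive peak. Of them, 32.4% covered a promoter window, and the summit of 26.2% lay more than 250 bp and up to 1000 bp downstream of a start and that of 13.8% as far upstream. The other 422 members had their nearest naive peak at a median of 22093 bp. Of these, 62.1% (57.4 to 66.6) covered a promoter window and 46.7% had the summit within 100 bp of a start. A day 30 peak lay within 1000 bp of 28 of the 145 and of 2 of the 422.

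**Figure D2:**
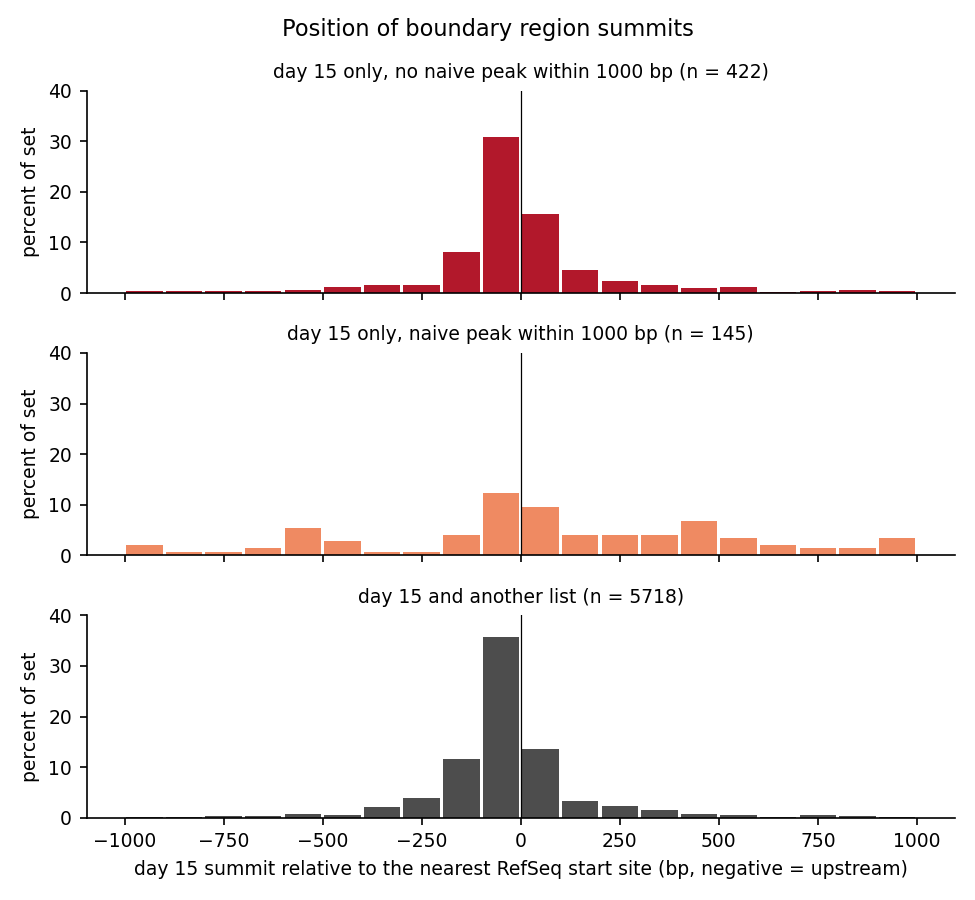
Distance of the day 15 summit from the nearest RefSeq start site (x axis in bp, negative upstream, bins of 100 bp) as the percent of each set (y axis), for members without a naive peak within 1000 bp, members with one, and shared regions. Members with a neighbouring naive peak spread over both flanks, while the other members gather at the start as the shared regions do, with 30.8% and 35.7% in the 100 bp before it.

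The promoter windows under the members were mostly CpG-rich. A window was called CpG-rich when its GC content was above 50% and its CpG count above 0.6 of that expected from its C and G content. That held for 72.2% (66.9 to 76.9) of the 309 windows under members, 82.4% (81.2 to 83.5) of the 4182 under shared regions, 70.8% (68.0 to 73.5) of the 1056 under naive-only regions and 33.3% of all windows. At 14 to 18 tags it held for 75.8% (69.1 to 81.5) under members and 79.6% (77.0 to 82.0) under shared regions. Median GC content was 60.7% (59.0 to 62.3) under members and 62.7% (62.3 to 63.0) under shared regions, against 52.7% over all windows.

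Of the 14 searched motifs, the CCAAT box had the largest gap in percentage points between member and shared windows. It was in 32.7% (27.7 to 38.1) of the windows under members and 47.4% (45.9 to 48.9) of those under shared regions, and at 14 to 18 tags in 33.1% (26.7 to 40.4) against 38.8% (35.9 to 41.9), where the intervals overlap. The GC box was in 43.4% (38.0 to 48.9) under members and 50.5% (49.0 to 52.0) under shared regions, and at 14 to 18 tags in 42.7% against 45.7%. ETS letters were in 11.7% (8.54 to 15.7) under members and 10.04% (9.17 to 10.99) under shared regions, both above the 3.89% of all windows. The NRF1 letters (GCATGCGC), the cyclic AMP response element and the letters of YY1 (AGATGGCGG) were in 7.12%, 5.18% and 4.53% of the windows under members, against 6.93%, 4.18% and 2.99% under shared regions. PU.1 letters (GAGGAAGT), those of the factor that defines the macrophage lineage, were in 3.24% (1.77 to 5.85) under members, 3.44% under shared regions and 3.20% of all windows.

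**Figure D3:**
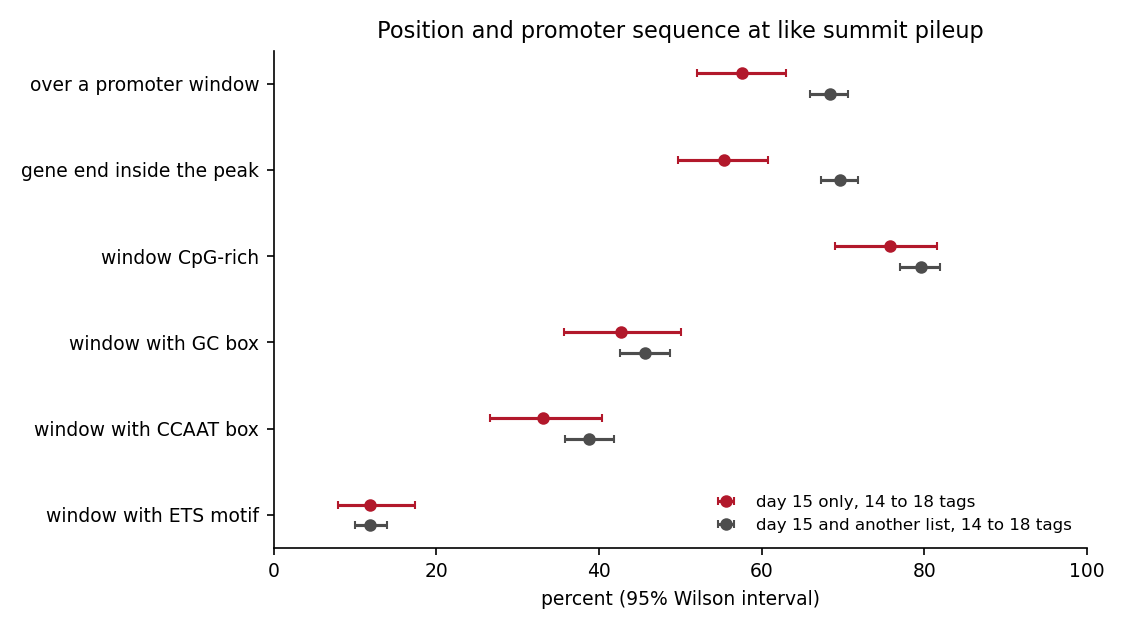
Percent of day 15-only boundary regions (red) and shared boundary regions (grey), both with 14 to 18 tags at the summit, that cover a promoter window or a gene end, and percent of the covered windows that are CpG-rich or hold a motif (points with 95% Wilson intervals). The intervals are apart for the 2 position measures and overlap for the 4 sequence measures. Median peak width was 239 bp in the red set and 293 bp in the grey set.

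The 20 strongest members by the authors' p-value had 19 to 30 tags and folds of 5.81 to 7.94. A gene start lay inside 12 of them, the nearest gene was protein-coding for 15 and a long noncoding RNA for 4, and 6 had a naive peak within 1000 bp. Kansl3, a subunit of the NSL histone acetyltransferase complex, led with 26 tags at chr1:36368945-36369271 across its start. Its nearest naive peak was 42532 bp away. Nol11, a nucleolar protein of ribosomal RNA production, had 21 tags at chr11:107189120-107189418 across its start, with the nearest naive peak at 56732 bp. Prdx1, a peroxide-reducing peroxiredoxin, had 19 tags across its start, and Scap, the sterol-sensing escort of the SREBP factors, had 20 tags across its start. Hcls1, a cortactin relative of blood cells, had 23 tags across its start and no naive peak for 50564 bp.

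Other leading members lay beside naive peaks. Pfkl, the liver form of the glycolytic enzyme phosphofructokinase, had 26 tags at chr10:78009656-78009962 over its start, 165 bp from a naive peak of 10 tags inside the gene. Sun2, a protein of the inner nuclear membrane, had 26 tags, with a naive peak of 21 tags at 100 bp. Arfrp1, a Golgi GTPase, and the neighbouring Zgpat shared a region of 24 tags, with a naive peak of 10 tags at 140 bp. The tallest member, of 30 tags at chr17:48408968-48409214, lay inside Nfya, which encodes a subunit of the CCAAT-binding factor NF-Y. Its neighbour across the Nfya start was in every list, with 34, 36 and 18 tags in the naive, day 15 and day 30 lists. The remaining members of the 20 with a protein-coding gene nearest were at H2-T22, Aurkaip1, Ubl7, Rbm22, Dtx4 and Tent5b, with 19 to 25 tags. The other 5 were at Gm32957, Gm31718, 1810044D09Rik, Gm14486 and the pseudogene Gm2774.

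In all, 749 genes of any kind had a member, 1.50% of the 49980 annotated, and 581 of these were protein-coding, 2.65% of 21887. They were 8.97% of the 6477 protein-coding genes with a day 15 boundary peak. Of the 581, 407 (1.86% of all protein-coding genes) had no boundary peak in the naive list, the shallowest of the 3 by background, and 174 had another one there. A day 30 boundary peak was present at 3 of the 407 and at 50 of the 174. The day 30 list was by far the shortest, with 3352 peaks. Of the 5718 shared regions, 2472 had a day 30 peak within 1000 bp, against 5706 with a naive one. A member was within reach of more than 1 gene at 175 of the 567 regions and had no protein-coding gene at 74. Starts of 2 genes on opposite strands flanked 13.9% (11.3 to 17.03) of the members and 18.9% (17.9 to 19.9) of the shared regions, and 13.9% against 14.7% at 14 to 18 tags.

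Across 25 gene lists with 469 different genes, 37 genes (7.89%) had a member. They had 11 to 30 tags, 17 had a member across the start, 27 had no naive boundary peak, and a day 30 boundary peak was present at 3 (Nfya, Atf4 and Dnaja1). The lists were chosen with results of these data known, so their counts describe these genes and are no test of a pathway. The 7.89% set beside them includes lists of other cell types with few day 15 boundary peaks. Over all protein-coding genes the share was 2.65%, and over those with a day 15 boundary peak 8.97%. For the sorted cell type, 12 of 30 alveolar macrophage genes and 14 of 25 general macrophage genes had a day 15 boundary peak. Among the other cell types, 2 of 15 T cell, 1 of 12 B cell, 2 of 12 neutrophil, 4 of 19 monocyte and interstitial macrophage, 2 of 16 epithelium and tumour, 0 of 12 endothelium and 0 of 12 fibroblast genes had one. Of these other lists, the epithelium and tumour list alone held a gene with a member (6.25%, near the 7.89% over all listed genes). It was Muc1, with 17 tags 207 bp beyond its end.

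**Figure D4:**
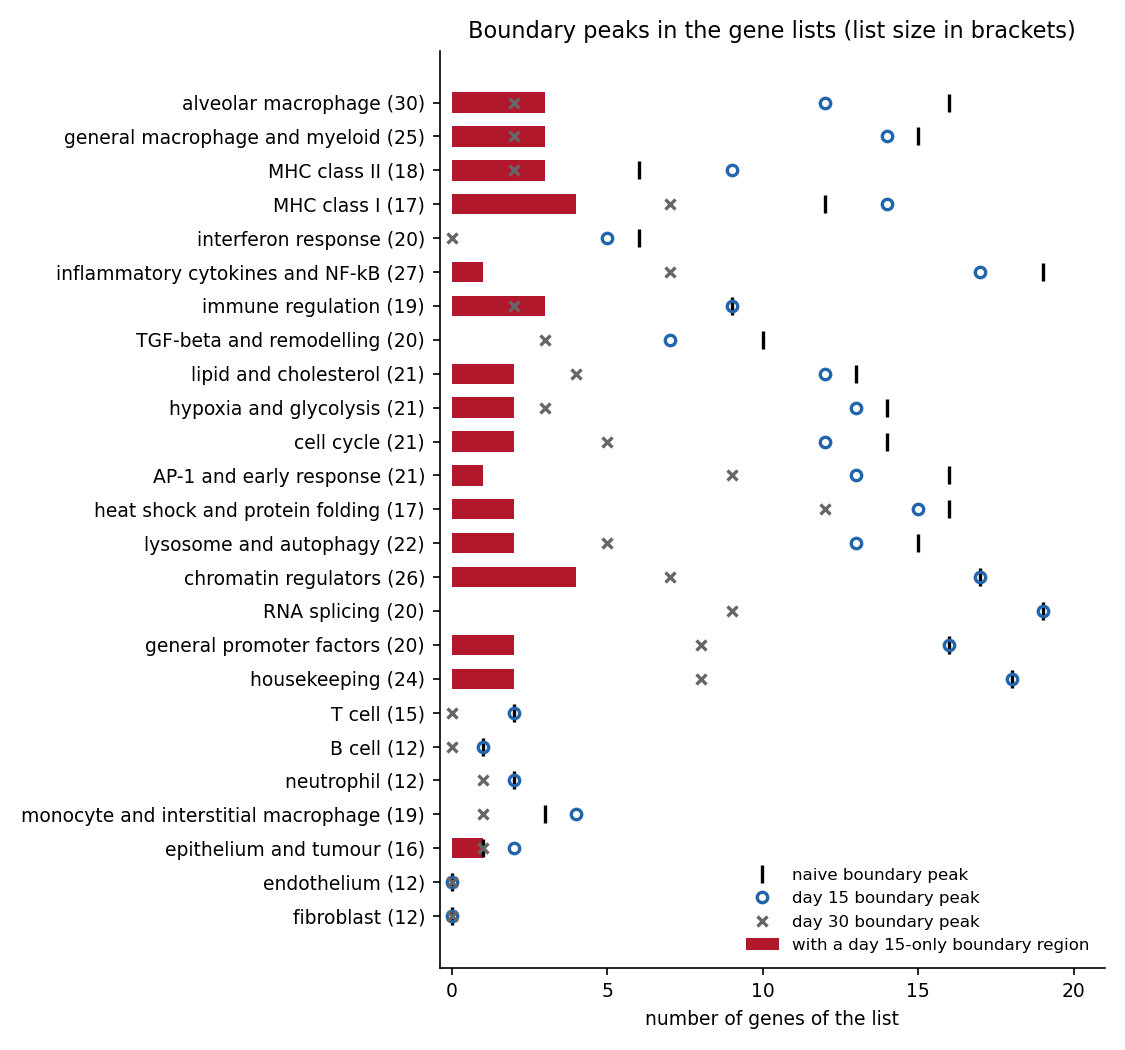
Number of genes in each of 25 lists with a day 15-only boundary region (red bars) and with any boundary peak in the naive (black ticks), day 15 (blue circles) and day 30 (grey crosses) lists. The MHC class I and chromatin regulator lists have 4 genes with a day 15-only region each, and 9 lists have 0.

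Antigen presentation genes held several members, most of them on chromosome 17. Of 18 MHC class II genes, 3 had one (16.7%, against 7.89% over all listed genes). Any boundary peak was present at 6, 9 and 2 of these genes in the naive, day 15 and day 30 lists. H2-Aa, the alpha chain of the class II molecule I-A, had 16 tags at chr17:34287759-34288061, across the start and over 96.0% of the promoter window printed above, with no naive peak for 8050 bp. H2-Eb1, the beta chain of I-E, had 15 tags at chr17:34304828-34305071, 796 bp upstream. C57BL/6 mice are known to lack the I-E surface molecule because their I-E alpha gene is defective. Cd74, the invariant chain that guides class II molecules to endosomes, had 22 tags outside one end of the gene, and no day 15 peak overlapped the naive one of 15 tags inside the gene. Scaled to the naive depth, the member pileups at H2-Aa, H2-Eb1 and Cd74 were 6.71, 6.29 and 9.23 tags, where the lowest naive peak has 6.

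Of 17 MHC class I genes, 4 had a member (23.5%, against 7.89% over all listed genes). With the lists cut to equal lengths, 2 MHC class I genes and 1 MHC class II gene did. These need not be the genes named here, because most regions that meet the rule after this cut were shared in the full lists. In the class I list, 12, 14 and 7 genes had any boundary peak in the naive, day 15 and day 30 lists. Psmb8, a proteolytic subunit of the immunoproteasome, had one region of 16 tags 351 bp upstream and another of 13 tags 92 bp inside its start. The first of these, at chr17:34197608-34197844, also lay downstream of Tap1, which with Tap2 forms the peptide transporter. The Tap1 start was open in both lists, with 19 tags on day 15 and 16 tags in the naive list. Tapbp, the tapasin that links the transporter to class I, had 12 tags across its start, where the shared peak lay upstream with 36 tags on day 15 and 32 tags in the naive list. At the naive depth, the member pileups at Tapbp and inside Psmb8 came to 5.03 and 5.45 tags. H2-T22, a nonclassical class I gene, had 20 tags at chr17:36042693-36043044 over the whole printed window. It belongs to a family of near copies, so reads from relatives may have been placed there and its value is uncertain. Chromosome 17 held 46 members (8.11%, 6.14 to 10.7), against 291 of the shared regions (5.09%, 4.55 to 5.69), and at 14 to 18 tags 9.06% (6.34 to 12.8) against 4.09% (3.20 to 5.22). Other chromosomes differed as well. Chromosome 5 held 8.11% of the members and 5.74% of the shared regions, and chromosome 11 held 9.88% and 7.45%. Chromosomes 1 and 10 went the other way, with 4.41% against 6.42% and 3.88% against 5.79%.

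**Figure D5:**
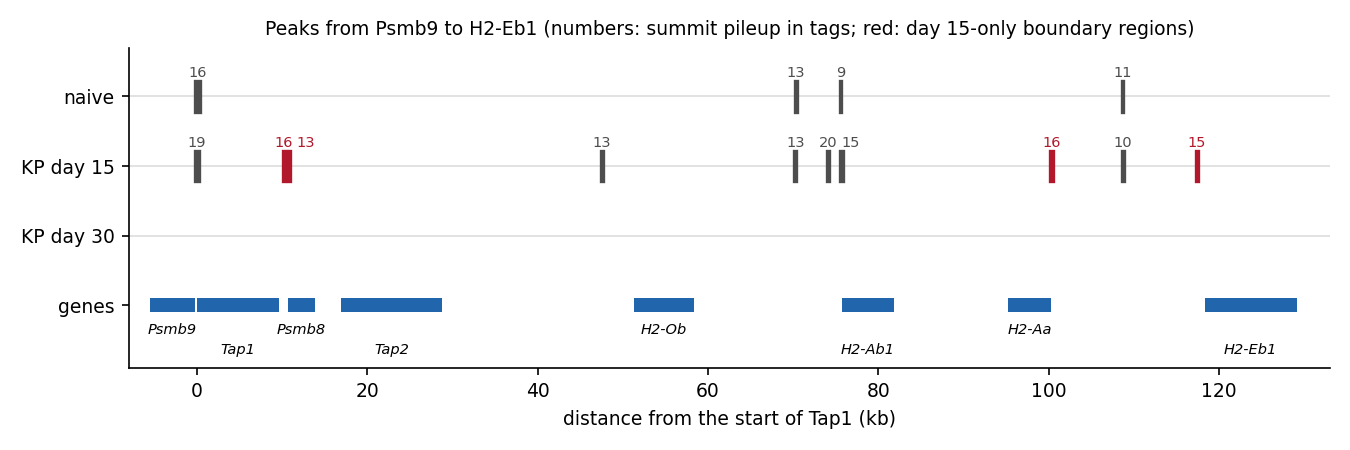
Peaks of the naive, KP day 15 and KP day 30 lists between Psmb9 and H2-Eb1 on chromosome 17 (x axis in kb from the start of Tap1, numbers are summit pileups in tags, blue bars are protein-coding genes). Day 15 has 10 peaks, of which the 4 in red are day 15-only boundary regions, naive has 4 and day 30 has none.

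Of the 55 genes in the 2 macrophage lists, 6 had a member (10.9%, near the 7.89% over all listed genes). Mrc1, the mannose receptor CD206, had 13 tags at chr2:14229208-14229514 across its start and over 85.3% of its printed window. The nearest naive peak lay 4568 bp upstream with 11 tags, and a region inside the gene was open in both lists. Ctsk, the collagen-cleaving cathepsin K, had 18 tags 332 bp inside its start, and Slc7a2, a transporter of cationic amino acids including arginine, had 12 tags just inside one end. None of the 3 had a naive boundary peak, while the alveolar macrophage list as a whole had 16, 12 and 2 genes with a boundary peak in the naive, day 15 and day 30 lists. At the naive depth, the member pileups at Mrc1, Ctsk and Slc7a2 came to 5.45, 7.55 and 5.03 tags, where the lowest naive peak has 6. Adgre1, which encodes the macrophage marker F4/80, had 14 tags across one end. Tfec, a MiT/TFE factor of macrophages, had 14 tags across its start, and 3 regions inside the gene were open in both the day 15 and naive lists. The member pileups at Adgre1 and Tfec were each 5.87 tags at the naive depth. Axl, a receptor for dying cells, had 18 tags 180 bp beyond its end. Farther beyond the end a region was in every list, with 31, 35 and 23 tags in the naive, day 15 and day 30 lists. The Axl start had no day 15 peak and a naive peak of 8 tags.

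Genes of signalling between immune cells also had members. Cxcl1, a neutrophil-attracting chemokine, had 18 tags at chr5:90891133-90891412 over the start and 54.0% of its printed window. No day 15 peak overlapped the naive peak of 20 tags that lay 6099 bp away, downstream of the gene. It was the only gene with a member among 27 inflammatory cytokine and NF-kB genes, of which 19, 17 and 7 had a boundary peak in the naive, day 15 and day 30 lists. In the immune regulation list, 3 of 19 genes had a member (15.8%, against 7.89% over all listed genes). Vsir, the checkpoint protein VISTA, had 20 tags across its start. Ccl17, a chemokine for regulatory and helper T cells, had 14 tags across its end. Nt5e, the adenosine-producing CD73, had 13 tags across its start. Neither Ccl17 nor Nt5e had another peak of any list within 5 kb. Their member pileups were 5.87 and 5.45 tags at the naive depth, below the 6 of the lowest naive peak. The interferon response list of 20 genes and the TGF-beta list of 20 had 0 genes with a member, and 5 and 7 with any day 15 boundary peak. Lists this short can hold 0 at the 7.89% found over all listed genes.

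In the lipid, hypoxia and glycolysis, heat shock and lysosome lists, 8 of 81 genes had a member (9.88%, against 7.89% over all listed genes), and 5 of these also had a naive boundary peak. Dnaja1, a heat shock cochaperone, had a member of 17 tags inside the gene, beside a start peak of 21 tags on day 15 and 17 in the naive list. Atf4, the factor of the integrated stress response, had 19 tags inside the gene beside a start peak of 33 tags on day 15 and 22 in the naive list. Egln1, an oxygen-sensing hydroxylase, and Pfkl were the hypoxia and glycolysis genes with a member, and both had a naive boundary peak. Soat1, which esterifies cholesterol, had 18 tags across its start with no naive boundary peak. Lamp2, a protein of the lysosomal membrane, had 13 tags across its start and no naive boundary peak. The member pileups at Soat1 and Lamp2 were 7.55 and 5.45 tags at the naive depth, where the lowest naive peak has 6.

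Chromatin regulators had 4 genes with a member among 26 (15.4%, against 7.89% over all listed genes). Besides Kansl3, its partner in the NSL complex Kansl1 had 17 tags across its start, and neither had a naive boundary peak. Tet2, which oxidises 5-methylcytosine, had 26 tags at chr3:133544988-133545325 across its start, beside a peak inside the gene of 19 tags on day 15 and 22 in the naive list. Crebbp, a histone acetyltransferase, had 14 tags 48 bp upstream (5.87 tags at the naive depth). Of the cell cycle genes, Birc5, which encodes survivin, had 19 tags across its start and no other peak within 5 kb, and Mki67, the proliferation marker Ki-67, had 20 tags inside the gene beside a start peak of 16 tags on day 15 and 15 in the naive list. Nr4a3, an early response nuclear receptor, had 25 tags across its start. Upstream of it the naive list had a peak of 46 tags, the day 15 list peaks of 27 and 24 tags and the day 30 list one of 19 tags. Among general promoter factors Usf2 was the second gene beside Nfya, with 17 tags, and Chmp2a, a subunit of the ESCRT-III complex from the housekeeping list, had 23 tags across its start. The RNA splicing list had 0 of 20 genes with a member, and 19 had a day 15 boundary peak. Of all protein-coding genes with a day 15 boundary peak 8.97% had a member, and a list this short can hold 0 at that share.

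Noncoding genes with a member comprised 117 long noncoding RNA genes, 20 tRNA genes and 8 microRNA genes among others. The 20 tRNA genes lay at 13 regions (2.29% of the members, 1.34 to 3.88) of 12 to 21 tags, and 10 of them were covered or cut by the peak. The shared regions had a tRNA gene within 1000 bp at 1.07% (0.831 to 1.37). At 14 to 18 tags the shares were 2.59% (1.32 to 5.02) and 1.21% (0.764 to 1.90), with overlapping intervals. The widest member, of 769 bp, covered the methionine tRNA gene n-TMcat16, and the next, of 659 bp, spanned the start of Agbl5 with a tyrosine and an alanine tRNA gene. The third, of 652 bp, was at Rnps1. Transfer RNA genes are near copies of each other, so the placement of their reads is uncertain.

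The X chromosome held 1 member, at Lamp2, against 122 of the 5718 shared and 78 of the 1998 naive-only regions. Of the day 15-only regions away from boundaries it likewise held few, 3 of 778 (0.386%). At 14 to 18 tags it held 0 of 309 members (upper bound 1.23%) and 53 of 1492 shared regions (3.55%, 2.73 to 4.62). Of all peaks, 2.24%, 1.59% and 1.10% were on the X chromosome in the naive, day 15 and day 30 lists. On the Y chromosome the lists had 1, 0 and 0 peaks. Whether the animals of the groups differed in sex was not tested.

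The 1000 bp limit fell among regions of like strength. The members farthest from a gene end were at Gm11613 (996 bp, 22 tags), Cbarp (982 bp, 22 tags) and Gm39840 (980 bp, 16 tags). The day 15-only regions just beyond the limit were at Cd37 (1004 bp, 22 tags), Psrc1 (1005 bp, 16 tags) and Gm33104 (1011 bp, 17 tags).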

How the data were processed

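The data were ATAC-seq peak lists of mouse alveolar macrophages, 1 deposited list per group. The labels number 4 naive, 4 KP day 15 and 3 KP day 30 samples, although the design mentions triplicates. Bowtie2 2.3.4.1, MACS2 2.1.1 and the mm10 build are named in the submitters' processing notes. Pooling, filtering and shifting of reads are not given in the sources used here. For every peak the authors deposited coordinates, a score, a fold ratio at the summit, and −log10 values of p and q (p-value and q-value). The columns have no header and were named from their values.

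Summit pileup and background were recovered from the deposited fold, as pileup plus 1 over background plus 1, and from the p-value, as the upper Poisson tail. The largest misfit was 1.9e-04 on the −log10 scale. The most common background value of a list gave its depth, for tags of 200 bp over a window of 10000 bp. The recovery and the region rule were checked on simulated peaks.

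Gene ends came from a RefSeq table of GRCm38.p6 of 49980 genes, with 21887 protein-coding ones outside the mitochondrial genome. RefSeq promoter windows numbered 32851 for 27025 genes, of which 32817 were searched. Strand was known for a gene end at 466 of the 567 regions. For shared regions the strongest day 15 peak was used. No peak was removed for repeated sequence.

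Genes named were the 20 strongest members by p-value, up to 5 members per gene list in list order, 3 regions on either side of the distance limit and the 3 widest. Some genes that this rule names are left out here. The members and lists were chosen with earlier results of these data known. Medians have exact binomial intervals. Alternatives changed the distance, the genes, the overlap, the q threshold, the list lengths and the background filter. Tools were Python 3.11.15, numpy 2.4.6, pandas 2.3.3, scipy 1.17.1 and matplotlib 3.10.9.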

Additional observations from a re-analysis of the deposited data

How the results depend on the processing

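Of 80 values recomputed for 9 results under 9 alternative settings, 61 stayed within their error or within 1.5 times the count and 19 moved. The share of day 15-only regions at boundaries moved to 37.0% within 500 bp, 49.1% within 2000 bp, 36.7% with protein-coding genes alone, 39.4% with peaks up to 200 bp apart joined, 47.2% where sharing needed 50% of the day 15 peak covered, and 57.9% with the 3 lists cut to their 3352 best peaks each. The share over a promoter window moved to 60.2%, 48.3% and 58.8% under the first 3 of these and to 75% at equal lengths. The share with a naive peak within 1000 bp moved to 13.6% with peaks joined, 46.9% with the coverage rule and 1.11% at equal lengths. The share in no other list at 14 to 18 tags moved to 15.2% with peaks joined and 22.4% with the coverage rule. Equal lengths gave 360 regions with a median pileup of 25 tags and 2 MHC class I and 1 MHC class II genes. The cut left no day 15 boundary peak of 14 to 18 tags, so the share in no other list has no value there. Most of the 360 were shared in the full lists and met the rule only after peaks of the other lists were dropped. The count of 402 protein-coding genes without a naive boundary peak there, against 407, therefore comes largely from other regions. The causes were not tested. The promoter-window and MHC alternatives were chosen after seeing the data.

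No paired analysis was possible because each group has 1 peak list and no result comes from a test, and leaving out a replicate had no data to work on for the same reason. By the recovered background, the naive list is the shallowest of the 3, at 39.2 tags per 10 kb.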

Other observations

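Further genes of innate immune function had a day 15-only boundary region. They were chosen after their values were seen, among the 581 protein-coding genes with one, and are given as values only. Clec4e, the receptor Mincle for microbial glycolipids, had 17 tags across its start, with the nearest naive peak at 23500 bp. Clec4a1, a C-type lectin of myeloid cells, had 14 tags 93 bp upstream. Nlrc4, an inflammasome sensor of bacterial flagellin, had 15 tags across its start and no naive peak for 30100 bp. Irf5, a factor of inflammatory macrophage gene programmes, had 20 tags 847 bp inside its start. Cyba, the p22phox subunit of the phagocyte oxidase, had 22 tags 204 bp inside its start, 1918 bp from a naive peak. Cxcr4, a chemokine receptor, had 25 tags across its start and a naive peak of 12 tags 696 bp away. A day 30 peak of 14 tags lay 1047 bp from this member. Clec4e, Clec4a1, Nlrc4, Irf5 and Cyba had no naive boundary peak, and none of the 6 had a day 30 boundary peak. The member pileups at Clec4a1 and Nlrc4 were 5.87 and 6.29 tags at the naive depth, where the lowest naive peak has 6.

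The salt-inducible kinases, known for restraining the CREB coactivators, each had a region as well. They too were picked after their values were seen, so that all 3 have one is no result about the family. Of all protein-coding genes 2.65% had a member, and of those with a day 15 boundary peak 8.97%. Sik1 had 14 tags across one end, Sik2 had 13 tags 346 bp inside its start and Sik3 had 11 tags 124 bp upstream. Sik2 had a naive peak 73 bp away with 22 tags, while Sik1 and Sik3 had no naive boundary peak. Scaled to the naive depth, the member pileups at these 3 genes were 5.87, 5.45 and 4.61 tags.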
